A study of Mus musculus with 6 samples.

Results

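Aminoacyl-tRNA synthetases are the enzymes that join each amino acid to its tRNA, and their mRNAs are described here in mouse embryonic stem cells (ESCs) of genotype Dgcr8-/- and strain C57/129. The members are 36 genes taken by name, each found once among the 13743 entries of the deposited expression table. The 20 whose symbols do not end in 2 form the cytosolic group and the 16 whose symbols end in 2 the mitochondrial group. RNA was sequenced from 3 groups of 2 libraries, all collected 48 h after transfection. The miR-294 group received a mimic of that microRNA and the siMbd2 group a small interfering RNA against Mbd2, each at 50 nM. Of the CTR group the sources used here say no more than the word mock in the table. All groups carry the Dgcr8-/- genotype per the labels; Dgcr8 is a cofactor needed to make canonical microRNAs, miR-294 among them. Dgcr8 itself read 7.49 and 8.44 RPKM in CTR, 6.66 and 7.14 with miR-294, and 7.24 and 7.34 with siMbd2, and a value for the whole gene cannot show whether the deleted part is missing. The labels name no clone and do not say whether replicates were separate cultures, so the p-values reflect only how these libraries vary, which may be technical.

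A cell needs a charging enzyme for every amino acid in the cytosol and again inside mitochondria, where a small separate translation system makes respiratory chain subunits. Most of the mitochondrial enzymes come from their own nuclear genes and are imported. Gars and Kars are exceptions, since each of these single genes is known to supply both compartments, and Qars has no mitochondrial partner gene because mitochondria make glutaminyl-tRNA by another route. Several cytosolic enzymes sit together in the multisynthetase complex. Many cytosolic synthetase genes are known to be raised by ATF4, the transcription factor of the amino acid stress response, and growth-promoting MYC proteins bind the E-box in genes of protein synthesis.

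The sequences below are shown because they hold the letters of the added microRNA, of its matches in members and of motifs of these regulators. Mature miR-294 (RefSeq, GRCm38.p6, chr7:3220691-3220712, plus strand) is printed with its seed, bases 2 to 8, in capitals.
mmu-miR-294-3p: aAAGUGCUucccuuuugugugu

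The strings sought on an mRNA were AGCACTTA for the 8-base match and AGCACTT or GCACTTA for the 7-base matches. Both 7-base strings are also contained in the 8-base one. AGCACTT pairs with the whole seed. The final A of AGCACTTA and of GCACTTA lies opposite the base before the seed, itself an A, and does not pair. For each gene the sense strand of its longest GENCODE 3' UTR was searched. Of 10819 tested genes with a 3' UTR, 21.0% held a match. Among the cytosolic members 1 of 20 held one, Cars, and among the mitochondrial members 6 of 16 did, Aars2, Hars2, Iars2, Mars2, Tars2 and Wars2. The UTRs differ much in length, from 67 bases in Vars to 9470 in Mars2, which alone held the 8-base match. Sites of these genes in GRCm38, all in 3' UTR exons, are shown with the match in capitals.
Cars, match at chr7:143557680-143557686, minus strand: ctgccctctcAGCACTTggagagct
Aars2, match at chr17:45520726-45520732, plus strand: agtggttaagAGCACTTgttgttca
Wars2, match at chr3:99217651-99217657, plus strand: attcataataAGCACTTctattttt
Mars2, match at chr1:55241270-55241277, plus strand: ttagtggtggAGCACTTAccgagcat

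In the RefSeq promoters (GRCm38.p6, 250 bases before to 50 after the gene start) 2 short strings were sought on both strands. TGATGNAA is the core of the amino acid response element that ATF4 binds with a partner, and CACGTG is the E-box bound by MYC and MAX; the strings do not overlap each other. A promoter entry was matched for 28 members, and none for Cars, Hars, Lars, Nars, Pars2, Rars, Vars and Wars. TGATGNAA occurred in 5 of 13 cytosolic promoters (38.5%), in 0 of 15 mitochondrial ones and in 2.63% of the 8657 tested genes with an entry. CACGTG occurred in 4 of 13 cytosolic promoters, Aars, Farsb, Iars and Tars, in 1 of 15 mitochondrial ones, Ears2, and in 12.2% of all. The Aars, Iars and Tars promoters held both strings, and those of Aars and Tars are printed whole, with the strings in capitals, on the strand of the gene.
Aars promoter, chr8:111033592-111033891, plus strand: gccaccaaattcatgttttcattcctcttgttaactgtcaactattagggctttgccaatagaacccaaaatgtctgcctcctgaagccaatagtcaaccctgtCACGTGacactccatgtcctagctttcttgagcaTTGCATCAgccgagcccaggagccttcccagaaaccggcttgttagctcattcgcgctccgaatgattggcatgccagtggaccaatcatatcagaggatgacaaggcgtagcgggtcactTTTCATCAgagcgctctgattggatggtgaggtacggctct
Tars promoter, chr15:11399609-11399908, minus strand: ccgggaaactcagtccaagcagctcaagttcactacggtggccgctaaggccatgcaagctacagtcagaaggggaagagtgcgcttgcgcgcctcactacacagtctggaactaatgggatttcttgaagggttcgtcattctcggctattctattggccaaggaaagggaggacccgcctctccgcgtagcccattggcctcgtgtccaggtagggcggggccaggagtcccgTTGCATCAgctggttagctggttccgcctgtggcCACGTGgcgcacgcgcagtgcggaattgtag

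For Iars, Gars and Yars the surroundings of TGATGNAA or of its reverse complement are shown. It lay 30 bases before the gene start in Gars, and 7 and 3 bases after it in Iars and Yars.
Iars, chr13:49682117-49682164, plus strand: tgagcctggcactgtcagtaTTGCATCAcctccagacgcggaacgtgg
Gars, chr6:55037951-55037998, plus strand: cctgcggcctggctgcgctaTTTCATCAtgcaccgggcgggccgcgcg
Yars, chr4:129189886-129189933, plus strand: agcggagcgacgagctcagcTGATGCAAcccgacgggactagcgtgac

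Levels are given in RPKM, read numbers divided by transcript length and library size, so they can be set side by side between genes. Among the 36 members, every cytosolic one stood above every mitochondrial one in CTR. The lowest cytosolic member was Wars, the tryptophanyl enzyme (35.4 and 30.8 RPKM). The highest mitochondrial member was Lars2, the mitochondrial leucyl enzyme (26.6 and 23.3 RPKM). Sars, the seryl enzyme, was the highest of all members at 230.1 and 209.9 RPKM. Mars2, the mitochondrial methionyl enzyme, was the lowest at 1.80 and 1.78 RPKM. The 36 genes together took 0.434% and 0.435% of the summed RPKM in CTR, 0.591% and 0.583% with miR-294, and 0.416% and 0.414% with siMbd2. The summed cytosolic level was 1747 and 1675 RPKM in CTR, 2663 and 2589.9 with miR-294, and 1742 and 1714 with siMbd2. The summed mitochondrial level was 208 and 191 RPKM in CTR, 253 and 259 with miR-294, and 213 and 209 with siMbd2. Both sums were thus higher in each miR-294 library than in any other library, the cytosolic one by the larger factor.

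**Figure D1:**
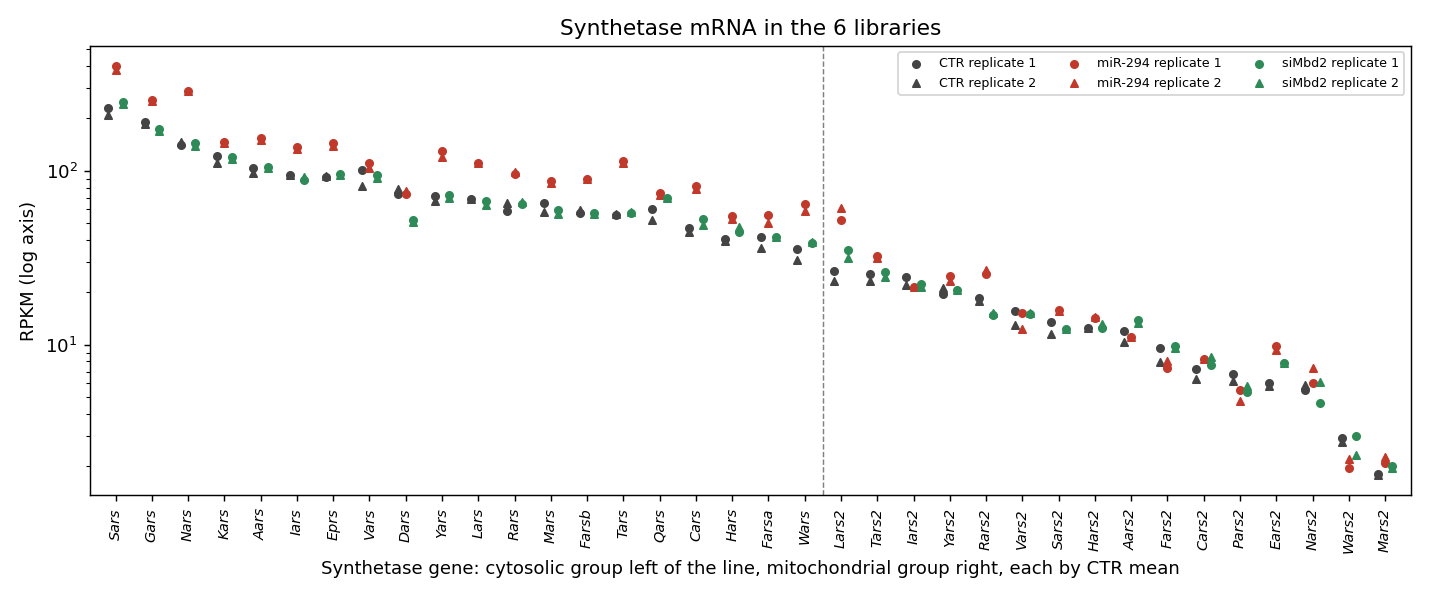
RPKM of the 36 synthetase genes (log axis), with 1 point per library, coloured by group (black CTR, red miR-294, green siMbd2) and shaped by replicate number. In CTR the cytosolic genes lie between 30.8 and 230.1 RPKM and the mitochondrial genes between 1.78 and 26.6 RPKM, and the red points lie highest for most cytosolic genes.

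Tests used log2(RPKM + 1), a scale that understates the changes of genes at low RPKM, and 11428 genes whose mean reached 1 RPKM, among them all 36 members. A gene was called when limma's adjusted p (Benjamini-Hochberg) was under 0.05, as higher or lower, and rose and fell refer to these calls. With 2 libraries in each group the smallest p of an exact permutation test is 0.333, and each call rests on the spread that limma estimates over all genes. RPKM carries no read counts, so the depth behind a value is unknown. Mbd2, the siRNA target, stood at 26.8 and 27.9 RPKM in CTR, 11.3 and 12.3 with miR-294, and 7.33 and 6.34 with siMbd2. Stem cell markers were abundant in every library, from 44.6 RPKM for Klf4 upward. With miR-294, 6 of the 8 changed, where 27.7% of all tested genes rose and 36.8% fell. Pou5f1 (log2 0.52), Zfp42 (0.65) and Tdgf1 (0.36) rose, and Nanog (-0.80), Sox2 (-0.51) and Dppa5a (-0.36) fell. With siMbd2 Pou5f1, Esrrb and Dppa5a rose and Nanog and Sox2 fell, where 19.5% of all tested genes rose and 14.9% fell. The 5 primitive endoderm markers summed to 3.38 and 2.91 RPKM in CTR, 3.15 and 3.14 with miR-294, and 2.68 and 2.32 with siMbd2. Within them Gata4 fell from 3.05 and 2.48 RPKM in CTR to 0.96 and 0.92 with miR-294. The other markers of this list together thus read higher with miR-294, each at no more than 1.28 RPKM, and were not tested. None of the 3 listed fibroblast markers exceeded 3.60 RPKM. The 3 neural progenitor markers (Sox1, Pax6 and Nes) all fell with miR-294 and summed to 21.5 and 22.2 RPKM in CTR, 10.2 and 10.5 with miR-294, and 21.2 and 20.4 with siMbd2. The listed fibroblast markers, mainly Thy1, summed to 1.92 and 1.75, 4.15 and 3.82, and 1.27 and 1.39 RPKM in the same order. The early mesoderm markers, mainly Eomes, summed to 1.85 and 1.67, 4.11 and 3.50, and 2.17 and 2.36 RPKM. The part of such cells, or of the stem cell marker changes, in the results was not tested, and in these bulk samples fewer cells of a type and less RNA per cell cannot be told apart.

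With miR-294, 18 of 20 cytosolic synthetases rose and none fell, where 27.7% of all tested genes rose and 36.8% fell. Their median log2 change was 0.60, against -0.08 over all tested genes. The changes ran from -0.01 for Dars to 1.0 for Tars and Nars, about a doubling at the top. In 19 of the 20 both miR-294 libraries lay above both CTR libraries, the exception being Dars. Of the 2088 tested genes whose CTR mean lay within the range of the cytosolic members, 33.1 to 220.0 RPKM, 42.7% rose and the median change was 0.08.

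Tars, the threonyl enzyme, read 55.6 and 56.2 RPKM in CTR, 114 and 111 with miR-294, and 56.9 and 57.6 with siMbd2. Its log2 change with miR-294 was 1.0 (SE 0.0532, adjusted p = 3.07e-06). Nars, the asparaginyl enzyme, read 140.0 and 147 RPKM in CTR, 288 and 288 with miR-294, and 145 and 139 with siMbd2 (log2 change 1.0, SE 0.054, adjusted p = 3.21e-06). For both genes the siMbd2 libraries stood within 5 RPKM of the CTR libraries or between them, and the miR-294 libraries stood alone. Wars, which charges tryptophan, read 35.4 and 30.8 RPKM in CTR, 64.0 and 58.4 with miR-294, and 38.6 and 38.9 with siMbd2 (log2 0.87). Yars, the tyrosyl enzyme, read 71.8 and 67.3, 130.4 and 120.2, and 72.2 and 69.7 RPKM in the same order (log2 0.84). Sars read 230.1 and 209.9 RPKM in CTR, 398 and 380.0 with miR-294, and 247 and 243 with siMbd2 (log2 0.82). Cars, the cysteinyl enzyme and the cytosolic member with a seed match, read 46.9 and 44.5 RPKM in CTR, 81.7 and 78.6 with miR-294, and 52.8 and 48.7 with siMbd2 (log2 0.80). Among these 4 genes Sars had the smallest adjusted p at 1.29e-05 and Wars the largest at 3.25e-05, and in none of them did a miR-294 library overlap another group.

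The multisynthetase complex holds the enzymes for arginine, aspartate, glutamine, isoleucine, leucine, lysine and methionine and the fused glutamyl-prolyl enzyme. Of its 8 synthetases 7 rose with miR-294 (median log2 change 0.49), and of the 12 cytosolic synthetases outside it 11 rose (median 0.71); the ranges overlapped, and the difference was not tested. Lars, the leucyl enzyme, read 68.7 and 68.4 RPKM in CTR, 111 and 111 with miR-294, and 66.5 and 63.3 with siMbd2 (log2 0.69 with miR-294). Rars, the arginyl enzyme, read 58.5 and 65.2, 96.1 and 97.9, and 64.0 and 66.2 RPKM in the same order (log2 0.64). Eprs, the fused enzyme for glutamate and proline, read 92.4 and 93.1, 144 and 138, and 95.4 and 94.0 RPKM (log2 0.60). In each of these the miR-294 pair was the high one and the other 4 libraries lay close together. Iars, the isoleucyl enzyme, read 94.6 and 94.3, 137 and 133, and 88.6 and 91.6 RPKM (log2 0.51). Mars, the methionyl enzyme, read 65.1 and 57.9, 86.9 and 84.5, and 59.6 and 56.3 RPKM (log2 0.48). Qars, the glutaminyl enzyme, read 59.96 and 51.8, 74.3 and 72.8, and 69.4 and 70.0 RPKM (log2 0.39), and so was high with siMbd2 too. Kars, the lysyl enzyme of both compartments, read 122 and 111, 146 and 144, and 120.4 and 117 RPKM (log2 0.32, adjusted p = 0.00192), and under quantile normalization this increase no longer passed. Dars, the aspartyl enzyme, stood apart from its complex partners at 73.2 and 78.0 RPKM in CTR and 73.6 and 76.6 with miR-294. Its log2 change was -0.01 with a 95% confidence interval from -0.14 to 0.12.

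Scaffold proteins hold the complex together, and all 3 of their genes rose with miR-294. Eef1e1 read 41.6 and 45.9 RPKM in CTR, 83.1 and 79.4 with miR-294, and 48.1 and 46.4 with siMbd2 (log2 0.88 with miR-294). Aimp2 read 34.2 and 31.7, 49.1 and 47.6, and 39.4 and 39.1 RPKM in the same order (log2 0.54), and Aimp1 rose by 0.45 (log2).

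Outside the complex, Farsa and Farsb encode the paired subunits of the cytosolic phenylalanyl enzyme. Farsb read 56.8 and 59.5 RPKM in CTR, 89.95 and 89.5 with miR-294, and 56.8 and 56.0 with siMbd2 (log2 0.62). Farsa read 41.7 and 35.8, 55.6 and 50.2, and 41.5 and 41.6 RPKM in the same order (log2 0.44), so both subunit genes rose. Aars, the alanyl enzyme, read 104 and 96.7 RPKM in CTR, 153 and 149.5 with miR-294, and 105 and 103 with siMbd2 (log2 0.59). Gars, the glycyl enzyme of both compartments, read 189 and 187, 254 and 251, and 173 and 169 RPKM (log2 0.42). Hars, the histidyl enzyme, read 40.5 and 39.4, 55.0 and 52.4, and 44.4 and 47.7 RPKM (log2 0.42). These 3 genes all had the miR-294 pair on top. Vars, the valyl enzyme, had the widest replicate gap of any member in CTR on the log2 scale (0.30), at 101 and 81.8 RPKM, and read 110.0 and 104 with miR-294, and 94.2 and 91.0 with siMbd2. Its log2 change of 0.23 with miR-294 did not pass (adjusted p = 0.0523; 95% confidence interval 0.02 to 0.44).

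The 12 cytosolic synthetases described as raised by ATF4 (Aars, Cars, Eprs, Gars, Iars, Lars, Mars, Nars, Sars, Tars, Wars and Yars) all rose with miR-294. Their median log2 change was 0.74, with a range from 0.42 to 1.0. Of the other 8 cytosolic members 6 rose, with a median of 0.41 and a range from -0.01 to 0.64. The 6 cytosolic genes with the largest changes all belonged to the first of these sets. The sets overlapped in the range from 0.42 to 0.64, and no test of their difference was made. Atf4 itself read 142 and 141 RPKM in CTR, 252 and 251 with miR-294, and 164 and 158 with siMbd2 (log2 0.83 with miR-294). The 5 cytosolic members with TGATGNAA in the promoters printed above had a median change of 0.59, and the 8 with an entry that lacked it 0.46. The structural classes of the enzymes, which differ in their catalytic fold, gave like counts: 9 of 10 class I and 9 of 10 class II cytosolic members rose, with medians of 0.62 and 0.52.

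**Figure D2:**
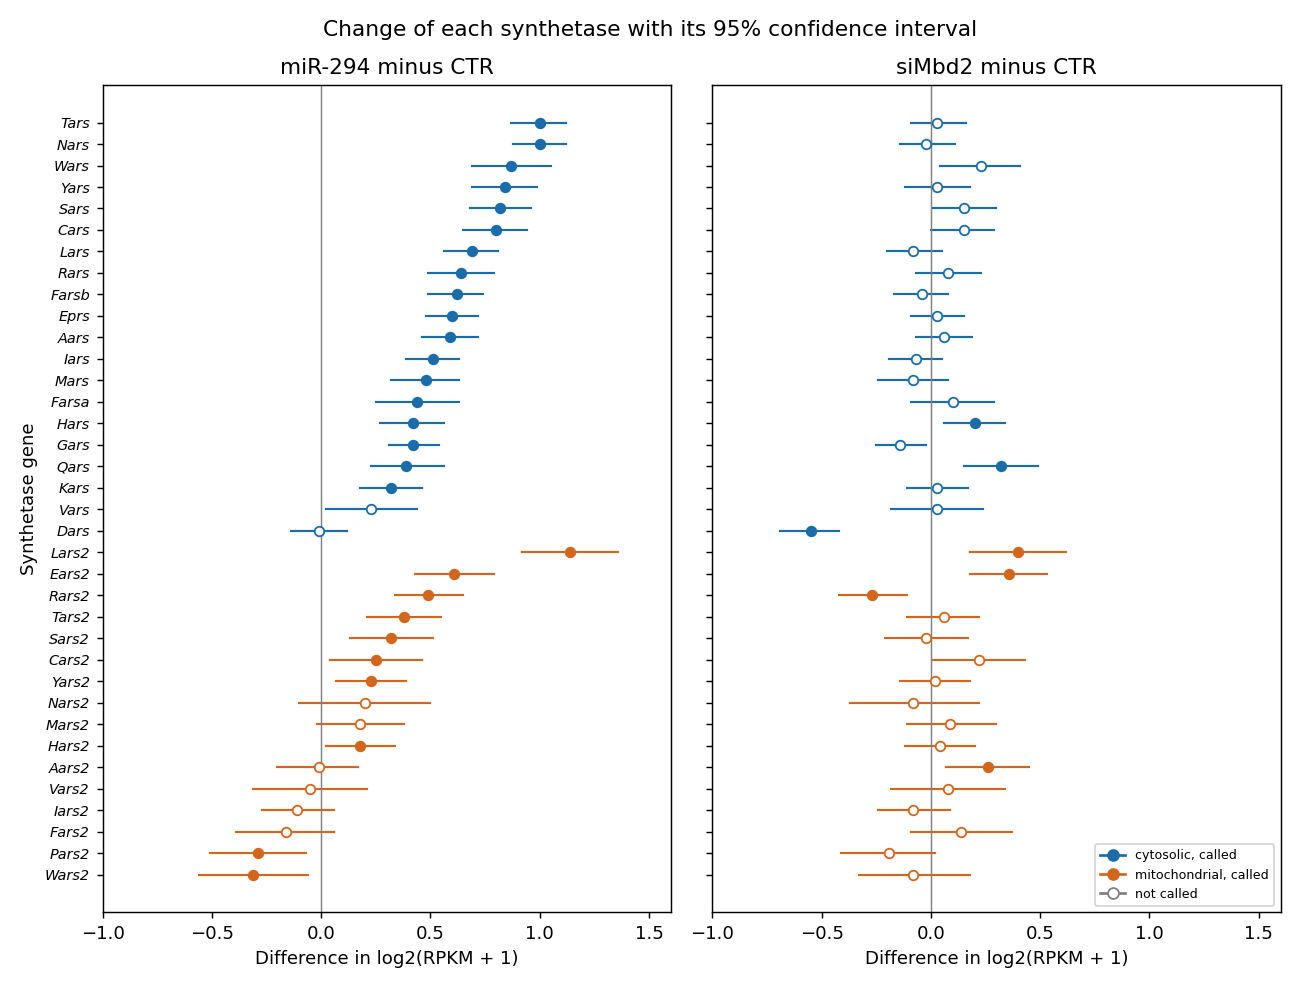
Difference in log2(RPKM + 1) for each synthetase with its 95% confidence interval, miR-294 minus CTR on the left and siMbd2 minus CTR on the right; blue is cytosolic, orange mitochondrial, and filled points were called. On the left 18 of 20 blue points are filled and above 0, with Vars and Dars open, while the orange points run from -0.31 for Wars2 to 1.14 for Lars2; on the right most points lie near 0.

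Mitochondrial synthetases were less uniform: 8 of 16 rose with miR-294 and 2 fell, with a median log2 change of 0.19. Without miR-294 replicate 1 only 4 were called higher, and without CTR replicate 2 the number called lower was 4. Among the 7446 tested genes within their range of CTR means, 1.79 to 25.0 RPKM, 21.0% rose and the median change was -0.15. Lars2 had the largest change of all members in either group. It read 26.6 and 23.3 RPKM in CTR, 52.0 and 60.6 with miR-294, and 34.9 and 31.5 with siMbd2 (log2 1.14 with miR-294, SE 0.0957, adjusted p = 2.14e-05). No library of these groups overlapped another, although the miR-294 replicates were further apart than for most members. Ears2, the mitochondrial glutamyl enzyme, read 6.03 and 5.81 RPKM in CTR, 9.78 and 9.34 with miR-294, and 7.86 and 7.86 with siMbd2 (log2 0.61 with miR-294, adjusted p = 0.000185). Rars2, the mitochondrial arginyl enzyme, read 18.6 and 17.9, 25.4 and 26.8, and 14.9 and 15.2 RPKM in the same order (log2 0.49, adjusted p = 0.000257). Tars2, the mitochondrial threonyl enzyme, read 25.5 and 23.1, 32.4 and 31.4, and 26.3 and 24.3 RPKM (log2 0.38, adjusted p = 0.00195). The calls of these 4 genes held under every alternative processing that was run.

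The other increases were smaller. Sars2, for serine, read 13.4 and 11.5 RPKM in CTR, 15.8 and 15.6 with miR-294, and 12.3 and 12.2 with siMbd2 (log2 0.32, adjusted p = 0.00974). Yars2, for tyrosine, read 19.6 and 21.1, 24.9 and 23.2, and 20.6 and 20.6 RPKM in the same order (log2 0.23, adjusted p = 0.0172). Both calls ended without miR-294 replicate 1, in a fit that assumes the lone library to vary like the other groups. Cars2, for cysteine, read 7.24 and 6.37, 8.29 and 8.23, and 7.67 and 8.54 RPKM (log2 0.25, adjusted p = 0.0396). Hars2, for histidine, read 12.4 and 12.4, 14.1 and 14.4, and 12.5 and 13.2 RPKM (log2 0.18, adjusted p = 0.0457). The Cars2 and Hars2 calls ended when any single miR-294 or siMbd2 library was left out, and that of Cars2 also without CTR replicate 2.

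Pars2 and Wars2 fell. Pars2, for proline, read 6.77 and 6.19 RPKM in CTR, 5.47 and 4.77 with miR-294, and 5.33 and 5.75 with siMbd2 (log2 -0.29, adjusted p = 0.0252). Wars2, for tryptophan, read 2.92 and 2.74, 1.96 and 2.21, and 2.97 and 2.32 RPKM in the same order (log2 -0.31, adjusted p = 0.034). Neither call was stable: both ended with quantile normalization and without CTR replicate 1 or miR-294 replicate 2, and that of Wars2 also without miR-294 replicate 1 and with median-of-ratios scaling. The remaining 6 mitochondrial members, Aars2, Fars2, Iars2, Mars2, Nars2 and Vars2, did not pass, with log2 changes from -0.16 for Fars2 to 0.20 for Nars2. The 6 mitochondrial members with a seed match had a median log2 change of 0.08 (2 rose, 1 fell) and the 10 without one a median of 0.24 (6 rose, 1 fell). Over all tested genes with a 3' UTR the medians were -0.25 with a match and -0.03 without. Both mitochondrial medians were above these, though Wars2 with a match and Pars2, Fars2 and Vars2 without one lay below the median of their class, and no test was made.

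For 13 amino acids the table holds 1 cytosolic and 1 mitochondrial gene, and the ratio of the pair can be taken within each library, where a scaling factor of the whole library cancels. Both miR-294 libraries had a higher cytosolic-to-mitochondrial ratio than both CTR libraries in 12 pairs and a lower one in 1, with a median difference of 0.53 (log2). For Wars over Wars2 the log2 ratio was 3.60 and 3.49 in CTR, 5.03 and 4.72 with miR-294, and 3.70 and 4.07 with siMbd2. For Nars over Nars2 it was 4.68 and 4.64, 5.57 and 5.29, and 4.96 and 4.50 in the same order. These were the largest shifts, and the miR-294 libraries overlapped no other library in either. Lars over Lars2 went the other way, at 1.37 and 1.55 in CTR, 1.09 and 0.87 with miR-294, and 0.93 and 1.01 with siMbd2. Rars over Rars2 barely separated from CTR, at 1.65 and 1.86 there, 1.92 and 1.87 with miR-294, and 2.11 and 2.13 with siMbd2. The ratio of the summed levels was 8.40 and 8.75 in CTR, 10.5 and 10 with miR-294, and 8.18 and 8.20 with siMbd2. No p is given for these ratios.

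**Figure D3:**
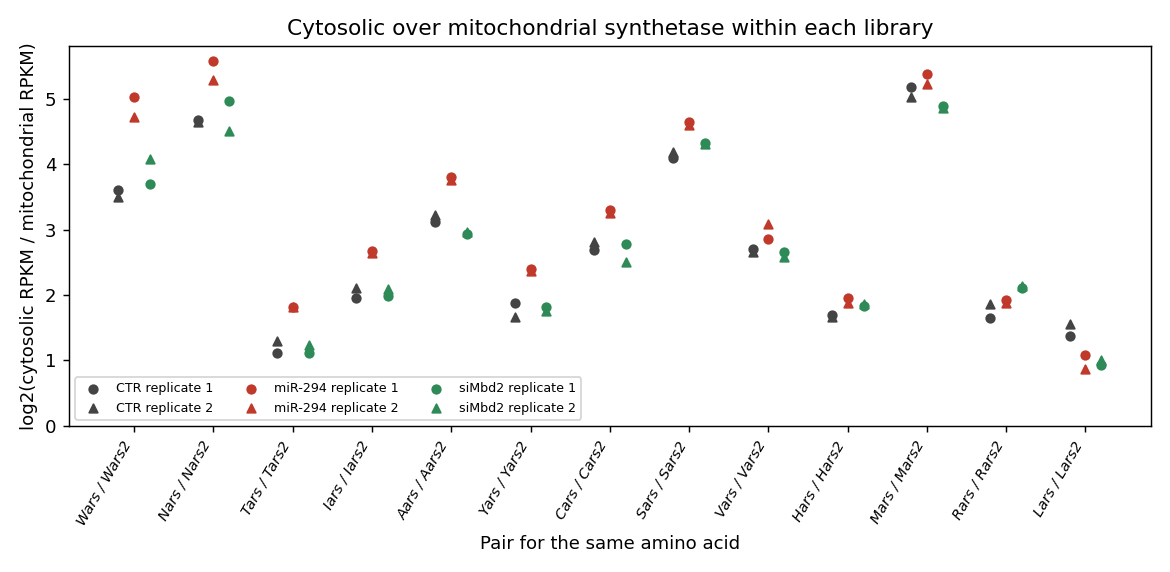
Log2 ratio of cytosolic to mitochondrial RPKM within each library for the 13 pairs, ordered by the difference between miR-294 and CTR; colours mark groups and shapes replicate numbers. Red points lie above black ones in 12 pairs, most for Wars and Wars2, and below them for Lars and Lars2.

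The gap between the groups depended on the normalization. With quantile normalization, which forces all libraries to the same distribution, the median change with miR-294 was 0.38 for cytosolic and 0.35 for mitochondrial members, 17 and 10 of them rose, and Dars was called lower. The cytosolic change was then the larger one in 9 of 13 pairs, against 12 of 13 with the deposited values, and the median within-pair difference of log2(RPKM + 1) went from 0.55 to 0.20. With median-of-ratios scaling, a single factor per library, the medians were 0.66 and 0.25. Quantile normalization moved the median of all tested genes from -0.08 to 0.02. Of the 18 cytosolic increases 17 were called under every alternative run, while the size of the lead over the mitochondrial members was not stable.

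**Figure D4:**
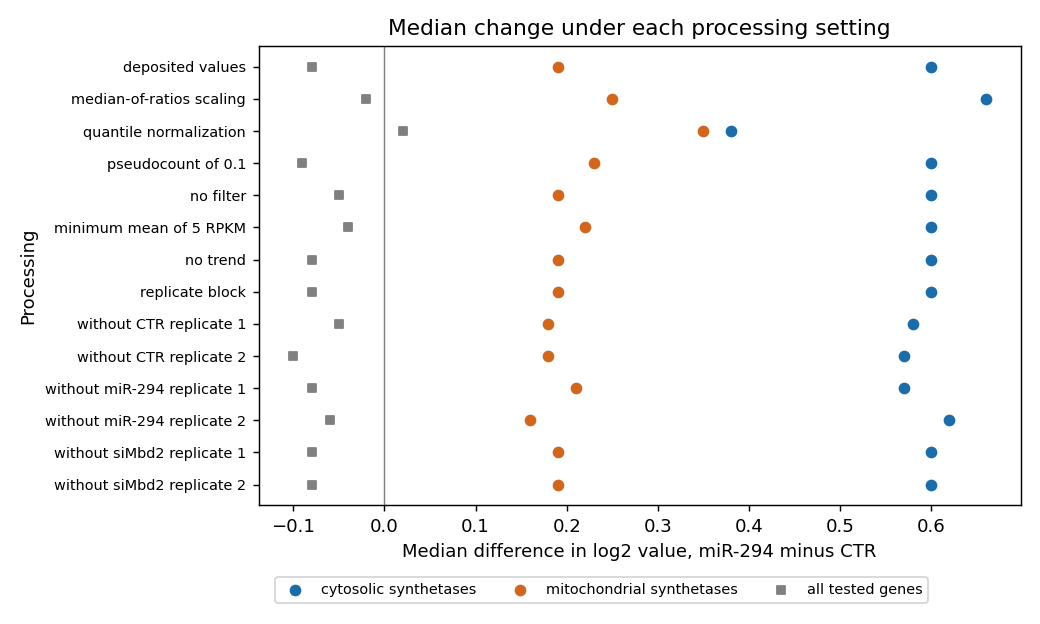
Median difference in log2 value between miR-294 and CTR for cytosolic synthetases (blue), mitochondrial synthetases (orange) and all tested genes (grey squares) under each processing setting. The blue and orange points are 0.60 and 0.19 with the deposited values and come together, at 0.38 and 0.35, with quantile normalization.

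Few synthetases changed with siMbd2. With siMbd2 2 of 20 cytosolic members rose and 1 fell, and 3 of 16 mitochondrial members rose and 1 fell, where 19.5% of all tested genes rose and 14.9% fell. The medians were 0.03 and 0.05, against 0.02 over all tested genes. With quantile normalization the cytosolic median was -0.05 and 5 cytosolic members were called lower. With the deposited values limma called none of the 12 members described as raised by ATF4. At an unadjusted p under 0.05, 3 of the 12 were higher (Cars, Sars and Wars) and 1 lower (Gars). Dars was the member with the largest change. Its level was 73.2 and 78.0 RPKM in CTR and 51.8 and 50.7 with siMbd2 (log2 -0.55, SE 0.0585, adjusted p = 0.000601), and this call held under every alternative. Rars2 fell by 0.27 (log2, adjusted p = 0.0161). Lars2 rose by 0.40 (adjusted p = 0.0146), Ears2 by 0.36 (adjusted p = 0.00927), Qars by 0.32 (adjusted p = 0.012), Aars2 by 0.26 (adjusted p = 0.0387) and Hars by 0.20 (adjusted p = 0.0392). Aars2, the mitochondrial alanyl enzyme, read 11.9 and 10.4 RPKM in CTR, 10.99 and 11.01 with miR-294, and 13.8 and 13.3 with siMbd2. Apart from Dars, all of these calls ended without siMbd2 replicate 1, and without siMbd2 replicate 2 all but that of Lars2 did. Those of Aars2 and Hars also ended without CTR replicate 2 or either miR-294 library. Without CTR replicate 1 the median changes with siMbd2 were 0.05 for cytosolic and 0.09 for mitochondrial members, against 0.05 over all tested genes.

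Set directly against siMbd2, miR-294 libraries were higher for 18 of 20 cytosolic and 6 of 16 mitochondrial members and lower for 2 mitochondrial ones, where 21.9% of all tested genes were higher and 35.5% lower. The median differences were 0.57 and 0.12, against -0.08 over all tested genes. This comparison uses the same miR-294 libraries as the one with CTR and is not independent of it. Dars was among the 18 here (0.54, adjusted p = 0.000117), at its CTR level with miR-294 and lower with siMbd2. Qars (0.08, 95% confidence interval -0.09 to 0.24) and Vars (0.21, -0.00 to 0.42) were the cytosolic members that did not pass. Aars2 (-0.28) and Fars2 (-0.30), the mitochondrial phenylalanyl enzyme, were lower with miR-294 than with siMbd2. Fars2 read 9.55 and 7.90 RPKM in CTR, 7.30 and 8.02 with miR-294, and 9.85 and 9.52 with siMbd2, and its CTR and miR-294 libraries overlapped. Both calls ended with quantile normalization and without any single miR-294 or siMbd2 library. Of the 6 mitochondrial members that were higher, Lars2 and Rars2 kept the call under every alternative. Among all called genes 38.1% were higher with the deposited values and 51.5% with quantile normalization, so the balance of directions over all genes depended on the scaling.

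Genes around tRNA charging moved less evenly. Of 12 tested companions of charging, 5 rose and 1 fell with miR-294 (median 0.19), beside 27.7% and 36.8% of all tested genes. With siMbd2 1 rose and 2 fell (median -0.00), beside 19.5% and 14.9%. Pstk, a kinase on the route to selenocysteinyl-tRNA, read 13.0 and 10.8 RPKM in CTR and 19.4 and 18.5 with miR-294 (log2 0.64, adjusted p = 0.000522). Tarsl2, a second threonyl enzyme of the cytosol, ran against Tars: it read 3.86 and 3.75 RPKM in CTR, 1.99 and 1.86 with miR-294, and 2.37 and 2.11 with siMbd2 (log2 -0.72 and -0.57). Of 30 genes for tRNA synthesis, processing and export, 16 rose (53.3%) and 3 fell with miR-294 (median 0.23). With siMbd2 7 rose (23.3%) and 2 fell (median 0.06), a share of increases near the 19.5% of all tested genes. Polr3gl, an RNA polymerase III subunit, fell by 0.67 with miR-294 and by 0.88 with siMbd2 on the log2 scale. Trnt1, which adds the CCA end of tRNAs, read 23.3 and 28.5 RPKM in CTR and 40.0 and 42.6 with miR-294 (log2 0.66), and Tsen34, a subunit of the tRNA splicing endonuclease, fell by 0.66 on the log2 scale.

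Regulators of the amino acid stress response were measured beside the synthetases. Of 16 genes 10 rose (62.5%, beside 27.7% of all tested genes) and 1 fell with miR-294 (median 0.39). With siMbd2 3 rose (18.8%, beside 19.5% of all) and 1 fell (median 0.01). Chac1, a glutathione-degrading enzyme, read 8.15 and 6.96 RPKM in CTR, 26.4 and 26.8 with miR-294, and 8.24 and 7.05 with siMbd2 (log2 1.69 with miR-294). Trib3, an ATF4-induced pseudokinase, rose by 0.93, and Eif2ak2, a kinase that senses double-stranded RNA, fell by 1.06 on the log2 scale. Myc, Mycn, Mycl and Max, the partner of MYC proteins, all rose with miR-294. Myc went from 1.84 and 2.41 RPKM in CTR to 26.0 and 26.9 with miR-294, and Max rose by 0.17 (log2). With siMbd2 Myc read 5.71 and 6.91 RPKM (log2 1.23, adjusted p = 0.000395) and Atf4 rose by 0.19 (adjusted p = 0.0239), beside a cytosolic synthetase median of 0.03. Whether these regulators contribute to the synthetase changes was not tested.

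Reads from some members could be shared with other annotated genes, and the sources used here do not give whether counting used strand. Of the 50-base words in GENCODE transcripts of Iars2, 22% also lie in transcripts of Rab3gap2 on either strand, and for Aars 13.5% lie in those of Exosc6. The Hars and Hars2 transcripts share 5.87% of the words of Hars. No word was shared with another gene in 13 of the 36 members, Nars, Sars and Lars among them. Fars2 shared 8.85% of its words with other genes, Farsb 7.27%, Iars 7.15% and Vars2 6.45%. How far shared reads entered the values of any member with shared words was not tested.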

How the data were processed

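RNA from 6 libraries of Dgcr8-/- mouse ESCs was sequenced in paired-end mode. The deposited table gives RPKM values per gene, which the authors computed; the submitters' processing notes name CASAVA 1.7, STAR 2.3.0, Cufflinks and the mm10 build without saying what each did, and the sources used here do not give the annotation or the strand setting. Per the labels, each sample averages 2 sequencing lanes. The authors' deposited ratio columns, fold values of the group means, served only as a check: they lay within 0.01 of ratios recomputed here for 36 of 36 members.

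Values were analysed as log2(RPKM + 1) in limma 3.58.1 (R 4.3.3) over all 3 groups, with a trended prior (residual degrees of freedom 3, prior 5.38), for genes whose mean reached 1 RPKM, and p-values were adjusted over all of them by Benjamini-Hochberg. The script was tested on simulated data. The design allowed for several units, and the branch for RPKM was used. Count-based models were not run because the values are not counts, and depth per library is unknown. The members and all gene lists were chosen with earlier results of these data known, so counts over them are descriptions. All libraries are given for every cytosolic member and every mitochondrial one called in a comparison, and from each pathway list at most 4 genes are named, those with the largest called changes with miR-294, besides Mbd2, Atf4 and Myc. Some genes of these lists are not reported here by name. Comparisons with CTR share its libraries. Alternatives were another pseudocount (0.1), no filter or a minimum of 5 RPKM, median-of-ratios scaling, quantile normalization, no trend, a replicate block and leaving out each library; the within-pair differences under these were added after seeing the data. Sequences came from RefSeq tables (GRCm38.p6) and GENCODE vM21 (GRCm38, the assembly of mm10).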

Additional observations from a re-analysis of the deposited data

How the results depend on the processing

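No called change of a member reversed its direction under any alternative. Changes that did not pass took the other sign in 38 of 1398 gene values, none of them called under the alternative, as for Fars2 with miR-294 against CTR (-0.16, and 0.04 with quantile normalization). With median-of-ratios scaling the cytosolic median was 0.66 and the mitochondrial median 0.25 for miR-294 against CTR, and 0.65 and 0.18 against siMbd2. Mitochondrial members called lower then numbered 1 in each of these comparisons, and siMbd2 against CTR gave 4 cytosolic members higher and 2 lower. With quantile normalization miR-294 against CTR gave 1 cytosolic member lower, 0 mitochondrial members lower, and medians of 0.38 and 0.35. Against siMbd2 it gave medians of 0.48 and 0.26 and 0 mitochondrial members lower, and siMbd2 against CTR gave 1 cytosolic member higher, 5 lower and a cytosolic median of -0.05. With a minimum of 5 RPKM, 1 mitochondrial member was lower with miR-294 than CTR, the mitochondrial median against siMbd2 was 0.18, and 1101 genes were lower with siMbd2, where fewer genes were tested. Without the trend 1 cytosolic member was higher with siMbd2. The cause of the other shifts was not tested. A ratio of median levels in place of sums gave 5.98 in CTR, 9.0 with miR-294 and 5.42 with siMbd2.

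Leaving out 1 library at a time, where the lone library left is assumed to vary like the other groups, gave 4 to 8 mitochondrial members higher and 0 to 4 lower with miR-294 than CTR, and 3 to 7 higher and 0 to 2 lower than siMbd2. For siMbd2 against CTR it gave 0 to 7 cytosolic members higher and 1 to 3 lower, 0 to 5 mitochondrial members higher and 0 to 1 lower, and over all genes 848 to 3350 higher and 562 to 2085 lower. With the replicate number as a block, 19 cytosolic and 8 mitochondrial members were higher and 2 mitochondrial ones lower with miR-294 than CTR, and siMbd2 gave 3 cytosolic members higher and 1 lower. The labels do not say that equal numbers mark a shared culture or day. Deviations of same-numbered libraries correlated at 0.119 for CTR and miR-294, 0.132 for CTR and siMbd2, and 0.0218 for miR-294 and siMbd2. With 2 libraries in each group these values cannot decide whether the libraries were paired. Without read counts, counting error at low RPKM, as for Mars2 and Wars2, could not be given.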
